A study of Rattus norvegicus with 8 samples.

Results

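A set of miRNAs known from microglia and from blood-derived immune cells were followed in the left medial vestibular nucleus (MVN) of the rat after surgery on the left ear: rno-miR-142-3p, rno-miR-142-5p, rno-miR-223-3p, rno-miR-150-5p, rno-miR-155-5p, rno-miR-146a-5p, rno-miR-146b-5p and rno-miR-342-3p. They were chosen by name, as 8 of the 758 rat miRNAs on the array, and all 8 were detected on every array. The MVN is the brainstem nucleus in which the vestibular nerve ends. Male Sprague–Dawley rats, 7 weeks old, underwent unilateral vestibular deafferentation (UVD) or a sham operation (SO), and tissue was taken 4 d or 4 h later. In the UVD group the eardrum and the ossicles other than the stapes were removed, the vestibule was opened by drilling, and 99% ethanol (the strength given in the sample labels) destroyed the labyrinth. In the SO group the ear was opened in the same way, the labyrinth was left closed and no ethanol was given, so both groups carried an ear wound. The groups were UVD at 4 d, UVD at 4 h, SO at 4 d and SO at 4 h, with 2 arrays each, and the RNA on an array came from a pool of 3 rats' left MVNs. No unoperated rats and no right MVNs were analysed here.

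A miRNA is cut from a hairpin precursor, whose 2 arms are named 5p and 3p, and it silences mRNAs that pair with its seed, bases 2 to 8 of the mature strand. miR-142 is made almost only in cells of the blood lineage, which includes microglia, the resident macrophages of the brain. miR-223 belongs to granulocytes and monocytes, and miR-150 to mature lymphocytes. miR-155 is switched on when macrophages and lymphocytes are activated, while miR-146a and miR-146b are induced by NF-kB and dampen its signaling through the adaptors IRAK1 and TRAF6. miR-342-3p is found in immune cells including microglia. Several of these miRNAs are also made by other cells, miR-146a by astrocytes among them, and the array measures the dissected tissue as a whole, so that more cells of a type and more RNA per cell cannot be told apart.

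The mature strands are shown because they tell which members share a hairpin or a seed. RefSeq (build GRCr8) held 7 of the 8 strands, written here from 5′ to 3′ with the seed in capitals.
rno-miR-142-3p: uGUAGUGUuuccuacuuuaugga
rno-miR-142-5p: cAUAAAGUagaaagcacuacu
rno-miR-223-3p: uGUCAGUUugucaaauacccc
rno-miR-155-5p: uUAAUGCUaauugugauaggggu
rno-miR-146a-5p: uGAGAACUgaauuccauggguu
rno-miR-146b-5p: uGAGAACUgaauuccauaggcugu
rno-miR-342-3p: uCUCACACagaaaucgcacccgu

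Both miR-142 strands come from 1 hairpin of 87 bases, Mir142 (chr10:73055104-73055190, plus strand), shown with the 5p strand and then the 3p strand in capitals.
Mir142: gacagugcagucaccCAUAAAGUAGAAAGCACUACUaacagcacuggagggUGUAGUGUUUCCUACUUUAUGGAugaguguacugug
The 3p strand lies at chr10:73055155-73055177 and the 5p strand at chr10:73055119-73055139, inside the interval of the protein-coding gene Tspoap1. A pair of listed miRNAs, miR-146a-5p and miR-146b-5p, shared the seed GAGAACU. Over the 22 bases of miR-146a-5p they were identical at 20, with the substitutions G18A and U21C from miR-146a-5p to miR-146b-5p, counted from 1 at the 5′ end. Their genes lie apart, at chr10:28350053-28350074 on the minus strand for the miR-146a-5p strand and at chr1:255144874-255144897 on the plus strand for the miR-146b-5p strand. No other miRNA among the 685 on the array with a sequence in RefSeq shared a seed with any of the 7. miR-223-3p lies at chrX:65151450-65151470 and miR-155-5p at chr11:37261117-37261139, each inside an lncRNA gene, which for miR-155-5p is its host transcript Mir155hg. miR-342-3p lies at chr6:133329715-133329737, inside the interval of Evl. All 3 are on the plus strand. The annotation used here gives gene intervals, and exons and introns were not distinguished.

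The members were measured well above background. Each was read by 2 probes in 8 spots apiece, and all 16 spots were well above background on all 8 arrays. Between 378 and 430 miRNAs were detected per array, 377 were detected on all 8, and no spot was saturated. Values are normalized intensities: the total gene signal of each miRNA, quantile normalized over the 8 arrays. Because this step gives miRNAs of the same rank the same value, some arrays share a value exactly. Levels of different miRNAs were not tested against each other, since each probe has its own brightness. Sums over a list of marker miRNAs, given below, therefore weigh the brighter ones more. A miRNA entered the test where both arrays of some group detected it, which 422 did, and limma fitted the 4 groups in 1 model, and p-values were adjusted over all 422 (threshold 0.05). Of 32 fold changes, 8 members in 4 comparisons of 2 groups, the 2 probes of a miRNA agreed in sign in 31, with a median gap of 0.034 on the log2 scale. The exception in sign was miR-150-5p between UVD and SO at 4 h. Of the tissue markers, 5 of 5 neuronal and 4 of 4 oligodendrocyte miRNAs were detected on every array. UVD arrays lay in slide row 2 and SO arrays in row 1, with 4 d in columns 1 and 2 and 4 h in columns 3 and 4, so effects of slide position and of group cannot be told apart.

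**Figure D1:**
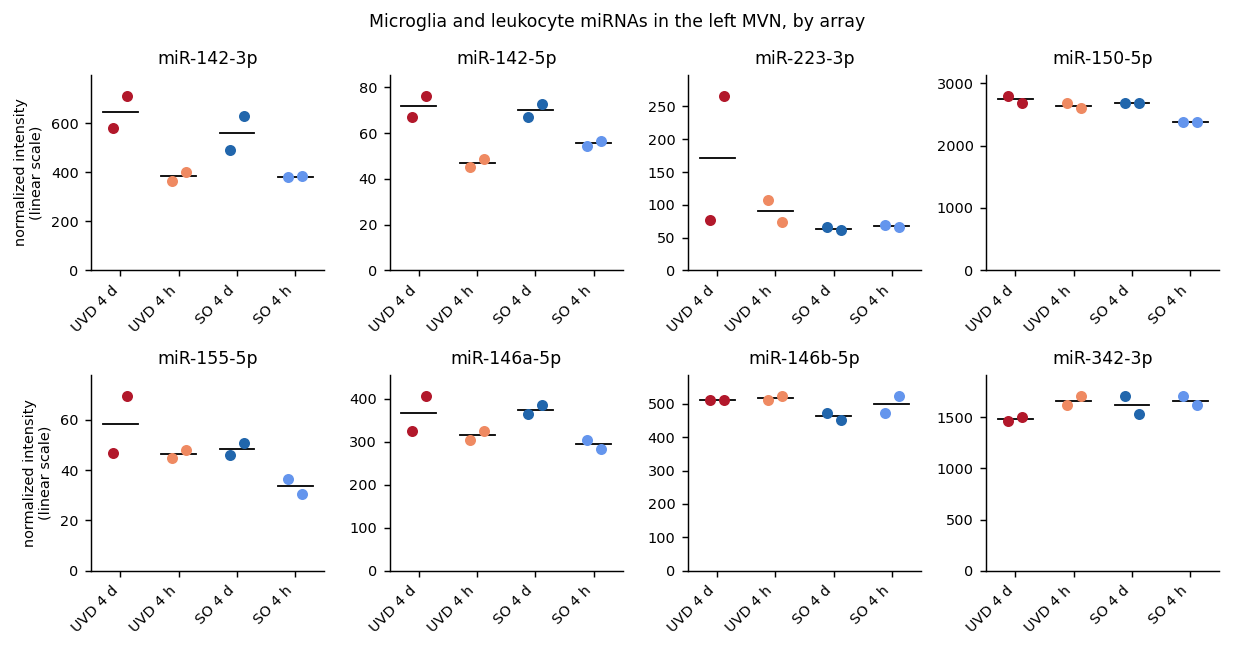
Normalized intensity (linear scale, from 0) of the 8 miRNAs on each array, 1 panel per miRNA, with replicate 1 left of replicate 2 in each group and the group mean as a bar. Both miR-142 strands lie higher on the 4 d arrays of both operations, and miR-223-3p stands at 267 on UVD replicate 2 at 4 d.

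Both strands of the miR-142 hairpin were higher 4 d after surgery than 4 h after it, with and without the labyrinth destroyed. miR-142-3p had normalized intensities of 581 and 712 in UVD at 4 d, against 366 and 402 in UVD at 4 h. In the SO group it had 491 and 629 at 4 d, against 380 and 385 at 4 h. Every 4 d array was thus above every 4 h array, whichever the operation. miR-142-5p, the strand from the other side of the same hairpin, had 67.3 and 76.5 in UVD at 4 d, against 45.3 and 48.9 in UVD at 4 h. In the SO group it had 67.3 and 72.9 at 4 d, against 54.5 and 56.5 at 4 h. Again no 4 d array overlapped a 4 h array. Averaged over the 2 operations, miR-142-5p rose at 4 d by 0.47 on the log2 scale (standard error 0.06, 1.39-fold, adjusted p = 0.0498), and it was the 1 member among the 7 of 422 miRNAs (1.66%) that passed in this comparison. The averaged change of miR-142-3p was 0.64 (standard error 0.11, 1.56-fold, adjusted p = 0.0651). A separation of all 4 d from all 4 h arrays upward was found for 23 of 422 miRNAs (5.45%), and 2 of the 8 members, the miR-142 strands, were among them.

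The margin of these calls was narrow. Over the 20 alternatives the adjusted p of miR-142-5p lay between 0.0207 and 0.181 and the call was lost in 12, while that of miR-142-3p lay between 0.0191 and 0.181 and passed in 7. Of the single arrays, the call of miR-142-5p was kept without SO 4 d replicate 1 (adjusted p = 0.0327). It was lost without each of the other 7 arrays, with adjusted p = 0.0594 without UVD 4 d replicate 1, 0.0976 without UVD 4 d replicate 2, 0.0709 without UVD 4 h replicate 1, 0.148 without UVD 4 h replicate 2, 0.0986 without SO 4 d replicate 2, 0.181 without SO 4 h replicate 1 and 0.130 without SO 4 h replicate 2. The log2 change itself moved between 0.43 and 0.52 without single arrays.

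Within the UVD group alone, the 4 d against 4 h change was 0.75 for miR-142-3p (standard error 0.16, adjusted p = 0.218) and 0.61 for miR-142-5p (standard error 0.09, adjusted p = 0.195). These 2 changes were at rank 5 (miR-142-3p) and rank 2 (miR-142-5p) of 422 by p-value, yet limma called 0 of 422 miRNAs in this comparison (0%), with 65 at an unadjusted p under 0.05. Within the SO group the changes were 0.54 (standard error 0.16, adjusted p = 0.153) and 0.33 (standard error 0.09, adjusted p = 0.148). Whether the change after UVD was larger was tested as the difference of the time changes. That difference was 0.21 for miR-142-3p (95% confidence interval -0.35 to 0.77, adjusted p = 0.752) and 0.27 for miR-142-5p (-0.05 to 0.60, adjusted p = 0.492). A larger change after UVD was therefore not shown, and the intervals leave room for one.

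Between the operations at the same timepoint, the miR-142 strands did not pass. At 4 d the UVD minus SO difference was 0.21 for miR-142-3p (adjusted p = 0.797) and 0.03 for miR-142-5p (adjusted p = 0.95), with overlapping arrays for both. At 4 h it was 0.00 for miR-142-3p. miR-142-5p was lower in UVD at 4 h on both arrays, at 45.3 and 48.9, against 54.5 and 56.5 in SO (log2 difference -0.24, standard error 0.09, adjusted p = 0.279).

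**Figure D2:**
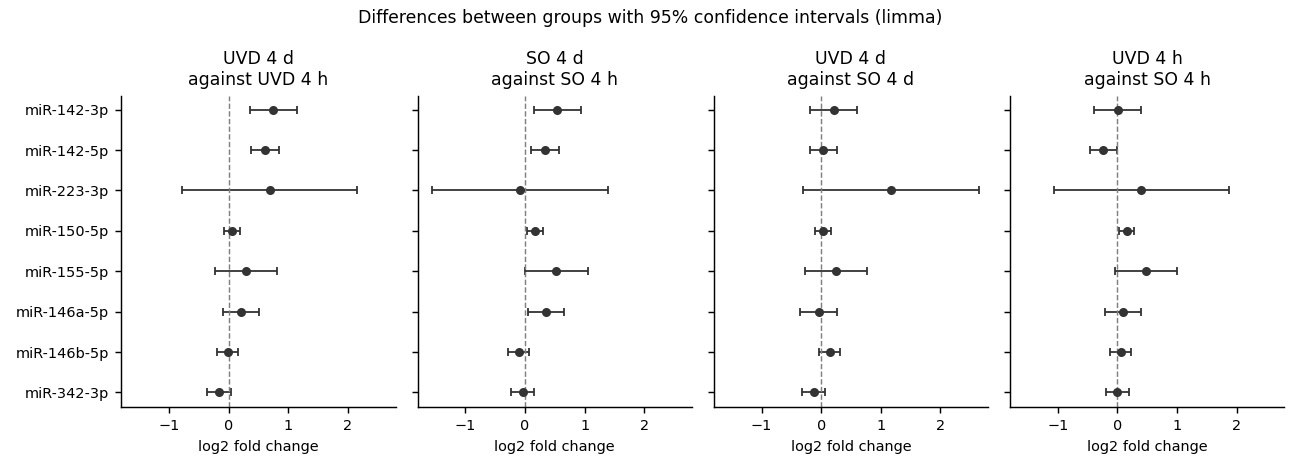
Log2 fold change of each miRNA (points) with its 95% confidence interval from limma (bars) in 4 comparisons of 2 groups, the dashed line marking no difference. Intervals of the miR-142 strands lie above 0 for 4 d against 4 h in both operations, and the interval of miR-223-3p is the widest in each panel.

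Higher means at 4 d were also found for marker miRNAs of blood. All 4 erythroid miRNAs (miR-451-5p, miR-144-3p, miR-144-5p and miR-486) had higher means at 4 d than at 4 h in both operations. In SO, 50.2% of all tested miRNAs did. The median log2 changes were 0.37 in UVD and 0.26 in SO, and 0 of the 4 passed. Their summed normalized intensity overlapped in UVD, with 1287 and 874 at 4 d, against 944 and 740 at 4 h. In SO it was 1018 and 1061 at 4 d, against 955 and 934 at 4 h. The 3 choroid plexus miRNAs (miR-204-5p, miR-211-5p and miR-1298) summed to 6900 and 5220 in UVD at 4 d, against 3991 and 3991 in UVD at 4 h. Their sums in SO were 3991 and 4211 at 4 d, against 3860 and 3860 at 4 h. On every array the sum was made up mostly of miR-204-5p. In SO, 2 of the 3 had higher means at 4 d, while miR-1298 was lower at 4 d without overlap. The 4 muscle miRNAs (miR-1-3p, miR-133a-3p, miR-133b-3p and miR-206-3p) had a median log2 change of -0.08 in UVD and 0.63 in SO over the same interval. In UVD 3 of the 4 had lower means at 4 d. The other, miR-206-3p, was higher, with 88.4 and 111 in UVD at 4 d, against 39.9 and 49.8 in UVD at 4 h. The liver miRNA miR-122-5p was detected on 0 arrays. Of the 4 vessel miRNAs tested, 1 had a higher mean at 4 d in UVD (median log2 change -0.10) and 3 in SO (median 0.06). Of the 4 oligodendrocyte miRNAs, 0 did in UVD (median -0.09) and 3 in SO (median 0.08). The 5 neuronal miRNAs split, with 2 higher and 2 lower in UVD, and 3 higher and 2 lower in SO. Among them miR-137-3p passed in SO, lower at 4 d (adjusted p = 0.0383). The part of blood or of adjoining tissue in the miR-142 values was not tested.

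miR-223-3p, the miRNA of granulocytes and monocytes, was the member with the largest difference between UVD and SO at 4 d and averaged over the timepoints, and 1 array carried most of it. It had 77.5 and 267 in UVD at 4 d, against 65.8 and 61.8 in SO at 4 d. At 4 h it had 107 and 74.6 in UVD, against 69.5 and 65.8 in SO. All 4 UVD arrays were above all 4 SO arrays, which held for 2 of 422 miRNAs (0.474%), the other being miR-31a-3p. In the total gene signal before scaling the groups overlapped, with 93.2 and 262 in UVD at 4 d and 94.6 and 65.5 in UVD at 4 h, against 65.1 and 57.5 in SO at 4 d and 64.8 and 71.0 in SO at 4 h. The authors' own normalized values kept them apart, at 105 or more on the UVD arrays and at 102 or less on the SO arrays.

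The tests of miR-223-3p did not pass. The UVD minus SO difference was 1.17 on the log2 scale at 4 d (standard error 0.58, 2.25-fold, adjusted p = 0.745), 0.40 at 4 h (standard error 0.58, adjusted p = 0.735) and 0.79 averaged over the timepoints (standard error 0.41, adjusted p = 0.419). Without UVD 4 d replicate 2 the 4 d difference was 0.28, and without UVD 4 d replicate 1 it was 2.07. The change within UVD, 0.69 at 4 d against 4 h, turned to -0.21 without UVD 4 d replicate 2. In SO the same change was -0.08.

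The high value of miR-223-3p was present on both of its probes. On UVD replicate 2 at 4 d the 8 spots of 1 probe averaged 187 and the 8 spots of the other 287, with coefficients of variation of 2.90% and 3.71%. On UVD replicate 1 at 4 d the same probes averaged 67.8 and 99.9. The 2 arrays of UVD at 4 d thus differed by 1.78 on the log2 scale for this miRNA, the seventh largest gap in size among 422, where the median gap was 0.13. In the other 3 groups the gap of miR-223-3p was between 0.08 and 0.52 in size. Erythroid miR-144-3p went the other way on the same pair of arrays, with 147 on replicate 1 and 71.8 on replicate 2, as did the choroid plexus miRNA miR-1298, with 125 and 48.9. The 4 erythroid markers summed to 1287 on replicate 1 and 874 on replicate 2, a sum made up mostly of miR-451-5p (1030 and 690), while miR-486 had 99.7 and 107. The part of blood in the miR-223-3p values was not tested.

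**Figure D3:**
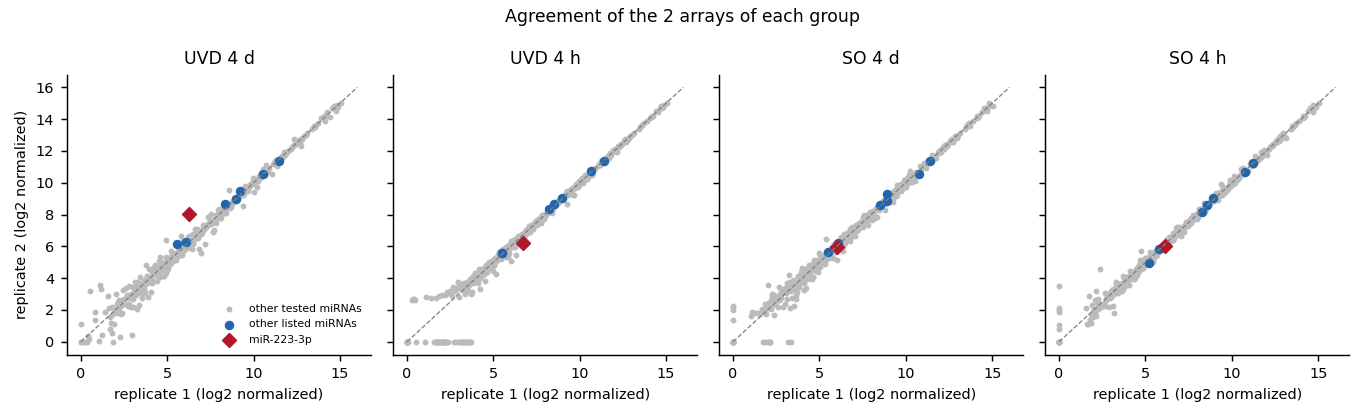
Log2 normalized intensity of the 422 tested miRNAs on replicate 2 (vertical) against replicate 1 (horizontal), 1 panel per group, with the dashed line marking equal values. miR-223-3p (diamond) lies 1.78 above the line in UVD at 4 d and within 0.52 of it in the other groups.

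That array was high in other members as well. Of the 8 miRNAs, 5 had their highest value of all 8 arrays on UVD replicate 2 at 4 d: both miR-142 strands, miR-223-3p, miR-155-5p and miR-146a-5p. Over all 422 tested miRNAs, 13.7% had their single highest value there. miR-150-5p was highest on UVD replicate 1 at 4 d, and 0 members had a single highest value on any of the 6 other arrays. The median log2 change of the members at 4 d against 4 h in UVD was 0.25 with all arrays, 0.03 without UVD 4 d replicate 2 and 0.47 without UVD 4 d replicate 1. The median of all tested miRNAs was -0.01 with all arrays.

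miR-155-5p, the miRNA of activated immune cells, was higher on both UVD arrays than on both SO arrays at 4 h. It had 44.9 and 48.0 in UVD at 4 h, against 36.5 and 30.7 in SO at 4 h. At 4 d the groups overlapped, with 46.9 and 69.5 in UVD, against 46.0 and 50.7 in SO. The SO group at 4 h was thus the low one, below the other 6 arrays. The UVD minus SO difference at 4 h was 0.47 (standard error 0.20, 1.39-fold, adjusted p = 0.315), and the 4 d against 4 h change in SO was 0.53 (standard error 0.20, adjusted p = 0.201), so neither passed. These comparisons share the SO arrays at 4 h. At 4 d the UVD minus SO difference was 0.24 (adjusted p = 0.797), and -0.05 without UVD 4 d replicate 2. Before scaling, the 4 h total gene signals of miR-155-5p were 43.3 and 43.3 in UVD, against 32.1 and 31.6 in SO, also without overlap.

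Of the NF-kB feedback pair, miR-146a-5p had higher values at 4 d in SO, and miR-146b-5p changed little between groups. miR-146a-5p had 366 and 385 in SO at 4 d, against 304 and 284 in SO at 4 h (log2 change 0.35, standard error 0.12, adjusted p = 0.171). In UVD it had 326 and 407 at 4 d, against 304 and 326 at 4 h, where the arrays met at 326 (log2 change 0.21, adjusted p = 0.415). Between UVD and SO it differed by -0.04 at 4 d and by 0.10 at 4 h, within the spread of the arrays. miR-146b-5p had 510 and 510 in UVD at 4 d and 510 and 524 in UVD at 4 h, against 473 and 452 in SO at 4 d and 473 and 524 in SO at 4 h. Its largest difference was that of UVD over SO at 4 d, 0.14 (95% confidence interval -0.03 to 0.32, adjusted p = 0.745). The 2 strands differ at 2 of the 22 bases compared, and binding of one to the probes of the other was not tested. Their values did not run in parallel (Pearson's r = -0.43 over 8 arrays).

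The miRNA of mature lymphocytes moved by small amounts. miR-150-5p, which restrains the transcription factor Myb in lymphocytes, had 2801 and 2675 in UVD at 4 d and 2675 and 2594 in UVD at 4 h, against 2675 and 2675 in SO at 4 d and 2370 and 2370 in SO at 4 h. As for miR-155-5p, SO at 4 h was the lowest group and lay below the other 6 arrays. The UVD minus SO difference at 4 h was 0.15 (standard error 0.05, 1.11-fold, adjusted p = 0.247), and the change in SO over time was 0.17 (standard error 0.05, adjusted p = 0.163). Before scaling, the arrays of miR-150-5p at 4 h overlapped, with 2460 and 2398 in UVD, against 2209 and 2551 in SO. The SO arrays of the 2 timepoints overlapped too, with 2599 and 2527 in SO at 4 d. The equal normalized SO values at each timepoint come from equal ranks, so the standard errors do not include the spread of these signals within SO.

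miR-342-3p was the member that lay lowest in UVD at 4 d. It had 1464 and 1503 in UVD at 4 d, against 1617 and 1709 in UVD at 4 h (log2 change -0.16, standard error 0.08, adjusted p = 0.352). In SO it had 1709 and 1528 at 4 d, against 1709 and 1617 at 4 h. The UVD arrays at 4 d lay below all 6 others, but the UVD minus SO difference at 4 d, -0.12 (95% confidence interval -0.32 to 0.07, adjusted p = 0.759), did not pass, and with no scaling between arrays it was 0.10.

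Only some of the opposite arms of these precursors were measurable. miR-150-3p and miR-342-5p were detected on all 8 arrays, miR-146b-3p on 1 array (SO replicate 2 at 4 h), and miR-223-5p, miR-155-3p and miR-146a-3p on 0. miR-150-3p had 55.5 and 56.5 in UVD at 4 d and 61.1 and 56.5 in UVD at 4 h, against 61.8 and 55.5 in SO at 4 d and 53.9 and 53.9 in SO at 4 h. It was thus lowest in SO at 4 h, as miR-150-5p was. At 4 h its UVD minus SO difference was 0.13 (adjusted p = 0.463). miR-342-5p had 22.5 and 22.9 in UVD at 4 d, against 20.4 and 22.5 in UVD at 4 h (log2 change 0.08). In SO it had 22.8 and 22.9 at 4 d, against 23.3 and 25.8 at 4 h, lower without overlap (log2 change -0.10, adjusted p = 0.516).

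The counts of members over time differed in size between the operations, a difference that was not tested for the list. In SO, 5 of the 8 had higher values at 4 d without overlap (25.6% of the 422 tested miRNAs did) and the same 5 had an unadjusted p under 0.05 (9.24% of all, in that direction): miR-142-3p, miR-142-5p, miR-150-5p, miR-155-5p and miR-146a-5p. After adjustment 0 of the 8 passed, where 7 of 422 did (1.66%). The median log2 change of the list was 0.25, against 0.00 over all tested miRNAs. In UVD, 2 of the 8 were higher at 4 d without overlap (19.0% of all) and 1 was lower (25.4% of all), and the miR-142 strands were the 2 with an unadjusted p under 0.05 (9.00% of all, higher). The median was 0.25, against -0.01 over all, and 0.03 without UVD 4 d replicate 2. With the 2 operations averaged, the same 5 of the 8 were higher at an unadjusted p under 0.05 (11.6% of all), with a median of 0.29. These medians describe 8 miRNAs that include 2 strands of 1 hairpin. The time comparisons of the list depend on the scaling for miR-223-3p, miR-150-5p, miR-146b-5p and miR-342-3p. Scaled to the 75th percentile of all miRNAs, all 8 had a higher mean at 4 d in SO, in place of 5 (50.2% of all), where the median of all tested miRNAs was itself 0.20. With the authors' normalized values 4 of the 8 did. There miR-150-5p had 1815 and 1898 in SO at 4 d, against 1898 and 1815 in SO at 4 h. Its SO arrays also overlapped before scaling.

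Between UVD and SO, 0 of the 8 members passed in limma at either timepoint or with the timepoints averaged (0% of all tested miRNAs passed in the average). At 4 d, 2 of the 8 were higher in UVD without overlap, miR-223-3p and miR-146b-5p (12.1% of all tested miRNAs), and 1 was lower, miR-342-3p (17.3% of all). Of the 8, 0 had an unadjusted p under 0.05 there, as 16 of 422 miRNAs did, and 0 of 422 passed (0%). At 4 h, 3 of the 8 were higher without overlap, miR-223-3p, miR-150-5p and miR-155-5p (22.5% of all), and 1 was lower, miR-142-5p (28.4% of all). An unadjusted p under 0.05 was reached by miR-150-5p and miR-142-5p, and by 72 of 422 miRNAs, of which 2 passed (0.474%). The median UVD minus SO difference of the members was 0.09 at 4 d and 0.08 at 4 h, against -0.02 and -0.01 over all tested miRNAs. At 4 h, 6 of the 8 had a higher mean in UVD (46.2% of all), but 3 of the 8 did with no scaling between arrays, where the median of all tested miRNAs was -0.11. The 4 miRNAs listed as muscle markers were all higher in UVD at 4 h without overlap (median log2 difference 0.52). The 3 choroid plexus miRNAs had higher means in UVD at 4 d (median 0.54). Which cells these marker miRNAs came from, and their part in the members' values, was not tested. In the test of whether the time changes differed between operations, 0 of the 8 passed, where 1 of 422 did (0.237%), and the median difference of the members was -0.02.

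The members did not vary as 1 block over the arrays. Over the 8 arrays, Pearson's r of log2 normalized intensity was 0.92 for the miR-142 strands, 0.87 for miR-142-3p with miR-146a-5p and 0.87 for miR-155-5p with miR-146a-5p. It was negative between miR-142-3p and miR-342-3p (r = -0.75). Of the 28 pairs, 16 were positive, with a median of 0.32. miR-223-3p with miR-155-5p had r = 0.71 but a rank correlation of 0.25, and both were highest on UVD replicate 2 at 4 d. All pairs share the same 8 arrays and the same normalization, so these values describe the arrays and were not tested.

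**Figure D4:**
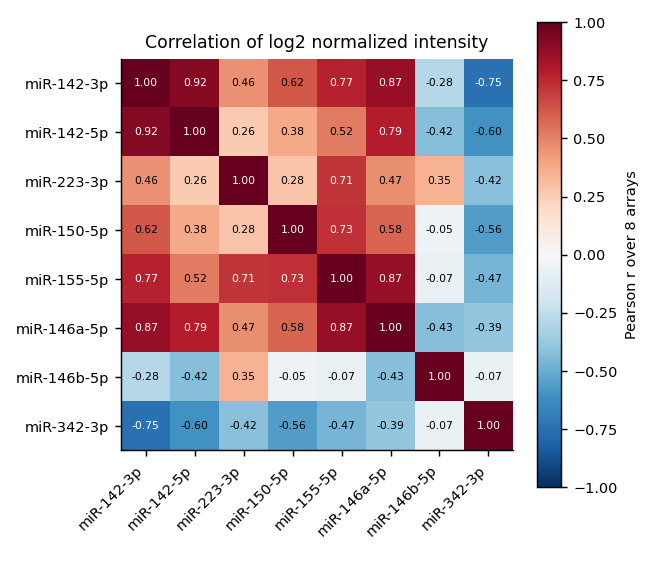
Pearson's r of log2 normalized intensity between each pair of the 8 miRNAs over the 8 arrays, from -1 (blue) to 1 (red), with the value in each cell. The miR-142 strands, miR-155-5p and miR-146a-5p form a block between 0.52 and 0.92, and miR-342-3p is negative with all others.

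The miRNAs outside the list whose pattern was most like that of a member were found among 369 others detected on all 8 arrays. For miR-142-3p they were miR-19a-3p (r = 0.990), miR-16-5p (0.972) and miR-497-5p (0.968), and for miR-142-5p they were miR-19a-3p (0.932), let-7i-5p (0.926) and miR-19b-3p (0.888). miR-146a-5p was also closest to miR-19a-3p (0.906), followed by miR-20a-5p (0.903) and miR-500-3p (0.896). miR-223-3p was closest to miR-26a-5p (0.937), miR-21-5p (0.892) and miR-3562 (0.883). The log2 value of miR-26a-5p was 14.09 on UVD replicate 2 at 4 d and 13.90 on every other array, so its r rests on that 1 array. For miR-155-5p they were miR-20b-5p (0.936), miR-652-3p (0.907) and miR-378b (0.892), and for miR-150-5p they were miR-34c-5p (0.945), miR-186-5p (0.929) and miR-34b-5p (0.924). miR-342-3p was closest to miR-433-3p (0.878), miR-208a-5p (0.860) and miR-382-5p (0.859). miR-146b-5p had no close partner, the nearest being miR-384-5p (0.634), miR-31a-3p (0.630) and miR-758-3p (0.586).

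A further 20 miRNAs with roles in inflammation or immune cells, all detected on every array, gave no call with limma in any of the 7 comparisons. Between the timepoints of UVD, 11 of the 20 had a higher mean at 4 d and 8 a lower one, with a median log2 change of 0.02. At an unadjusted p under 0.05 with limma, 4 were higher (9.00% of all tested miRNAs) and 2 lower. Such a p was reached in either direction by 65 of 422 miRNAs. miR-221-3p, which represses cell cycle inhibitors and was a candidate the study chose on these arrays, had 133 and 164 in UVD at 4 d, against 87.4 and 101 in UVD at 4 h (log2 change 0.65, standard error 0.15, adjusted p = 0.218). miR-181b-5p was lower, with 1357 and 1314 in UVD at 4 d, against 1503 and 1571 in UVD at 4 h (log2 change -0.20, adjusted p = 0.237). At 4 h it was higher in UVD than in SO (log2 difference 0.29, adjusted p = 0.116). miR-20a-5p, of the miR-17 cluster, had 721 and 880 in UVD at 4 d, against 598 and 629 in UVD at 4 h (log2 change 0.38, adjusted p = 0.237). Between UVD and SO at 4 d, 13 of the 20 had a higher mean in UVD and 7 a lower one. With limma, miR-221-3p had the smallest p of the 20 there (log2 difference 0.55, standard error 0.15, unadjusted p = 0.0125, adjusted p = 0.701). It had 133 and 164 in UVD at 4 d, against 109 and 93.3 in SO at 4 d, without overlap. At 4 h it was lower in UVD (log2 difference -0.24, adjusted p = 0.464). miR-21-5p, which is induced in reactive glia, was also highest on UVD replicate 2 at 4 d. It had 5151 and 7029 in UVD at 4 d, against 4964 and 5271 in SO at 4 d (log2 difference 0.23, adjusted p = 0.759). In SO over time, 9 of the 20 were higher (50.2% of all tested miRNAs were) and 10 lower, with miR-222-3p at -0.52 (adjusted p = 0.148) and the activity-dependent miR-132-3p at -0.50 (adjusted p = 0.152).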

How the data were processed

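RNA of 8 pools was labeled with Cy3 and hybridized to 1 slide of Agilent rat miRNA arrays, read in 1 scan. Per the file headers, Agilent Feature Extraction 10.7.3.1 gave the intensity of each spot and the total gene signal of each miRNA, both deposited, beside the authors' own linear normalized intensity values (quantile normalized in GeneSpring GX 13.1). Here the total gene signal was quantile normalized over 8 arrays, values under 1 were set to 1, and log2 values went into 1 model of 4 group means and 7 contrasts (lmFit, eBayes and Benjamini-Hochberg adjustment in limma 3.58.1, under R 4.3.3). The script was tested on simulated data. Members, lists and the rule for named miRNAs (all members, their opposite arms, up to 4 context miRNAs per contrast by p, 3 most alike miRNAs per member by Pearson's r) were chosen with earlier results of these data known. Alternatives were other scalings, signals, filters, floors and variance models, the methods' t-test, a replicate block and leaving out each array. Replicates are pools of different rats. With 2 arrays per group, their number limits the precision. miRNA sequences and positions were taken from RefSeq (GRCr8).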

Additional observations from a re-analysis of the deposited data

How the results depend on the processing

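Of 952 values of 46 results on single members under the alternatives, 905 kept their side of the threshold without a change of sign, and 28 changed sign. The others were the 12 losses for miR-142-5p and the 7 gains for miR-142-3p in the averaged time change. The 46 results cover every member in each comparison of 2 groups and in the averaged time change. For UVD against SO averaged they cover only miR-223-3p, miR-155-5p and miR-150-5p. For the difference of the changes they cover only the miR-142 strands and miR-223-3p. The other members were not counted in these comparisons. A value of 0 has no direction and was not counted as a change of sign. Such was the main value of miR-342-3p for UVD against SO at 4 h, whose alternatives ran from -0.17 to 0.098. The causes were not tested. The losses outside single arrays were with scaling to the 75th percentile of miRNAs detected on all arrays (adjusted p = 0.0631), the mean processed spot signal (0.052), no filter on detection (0.065), robust eBayes (0.051) and the replicate block (0.0548). The gains of miR-142-3p were with the 75th percentile of all miRNAs as the scale (0.0454), no scaling (0.0497), normexp (0.0278), the authors' normalized values (0.0191), a floor of 5 (0.0428), an intensity trend (0.0297) and without SO 4 d replicate 1 (0.0327).

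Values with a changed sign were at most 0.25 in size, but some of the main values were larger. For miR-223-3p the main values were 0.69 for the UVD change, 0.30 averaged and 0.77 for the difference of the changes. For miR-155-5p the UVD minus SO difference at 4 d was 0.24. These 4 changed sign without UVD 4 d replicate 2. With no scaling between arrays, miR-142-3p was -0.12, miR-146a-5p -0.11 and miR-146b-5p -0.13 for UVD against SO at 4 h, miR-146a-5p 0.015 and miR-342-3p 0.10 for UVD against SO at 4 d, and for 4 d against 4 h miR-146b-5p was 0.25 in UVD and 0.060 averaged, and miR-342-3p 0.19 in UVD and 0.05 averaged. With all miRNAs' 75th percentile as the scale, the change in SO was 0.040 for miR-223-3p, 0.061 for miR-146b-5p and 0.10 for miR-342-3p, and the averaged change 0.027 for miR-146b-5p and 0.018 for miR-342-3p. In UVD, miR-150-5p was -0.079 with the 75th percentile of miRNAs detected on all arrays, and miR-146b-5p was 0.0011 with the authors' values. Without single arrays, UVD against SO at 4 h ran from -0.061 to 0.069 for miR-142-3p and from -0.020 to 0.12 for miR-146b-5p. At 4 d it ran from -0.056 to 0.13 for miR-142-5p, from -0.046 to 0.52 for miR-155-5p and from -0.21 to 0.11 for miR-146a-5p. The SO change ran from -0.12 to 0.045 for miR-342-3p. For miR-223-3p the UVD change ran from -0.21 to 1.58, the averaged change from -0.15 to 0.75 and the difference of the changes from -0.13 to 1.66. With no scaling the median of all miRNAs moved to 0.26 for 4 d against 4 h in UVD to 0.16 for UVD against SO at 4 d and to -0.11 at 4 h, and with all miRNAs' 75th percentile it moved to 0.20 for 4 d against 4 h in SO and to 0.15 for UVD against SO at 4 h.

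Counts of calls over all 422 miRNAs depended on the processing. For UVD against SO at 4 d (0 calls) there were 1 with each 75th percentile scaling and with no scaling, and 2 with no filter and with a floor of 5. For UVD against SO at 4 h (2 calls) there were 1 with these 3 scalings, 0 with the mean processed spot signal and with the methods' t-test, and 8 with an intensity trend. For 4 d against 4 h in UVD (0 calls) there were 1 with the 3 scalings and 2 with no filter. In SO (7 calls) there were 1 with the 3 scalings, 11 with normexp, 19 with the authors' values, 2 with no filter, 0 with the methods' t-test and 2 with the replicate block. Averaged over the operations (7 calls) there were 2 with the 75th percentile of miRNAs detected on all arrays, 18 with that of all miRNAs, 0 with the mean processed spot signal, 60 with normexp, 41 with the authors' values, 31 with a floor of 5, 36 with an intensity trend, 4 with robust eBayes and 0 with the replicate block. For UVD against SO averaged (0 calls) there were 2 with the 3 scalings and with no filter. For the difference of the changes (1 call) there were 2 with the 3 scalings and with a floor of 5, 3 with no filter, and 0 with the mean processed spot signal, normexp, the authors' values and an intensity trend. Without single arrays the counts ran from 0 to 1, 1 to 10, 0 to 11, 1 to 12, 0 to 32, 0 to 7 and 0 to 7, in the order given.

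The replicate numbers do not pair the pools: deviations of same-numbered arrays correlated between -0.25 and 0.19 over pairs of groups, and the replicate block ended 1 call among the members, that of miR-142-5p. Normexp used the median spot signal with an offset of 50, which shrinks changes of weak signals. The methods' t-test was run for the 4 comparisons of 2 groups and called 0 miRNAs after adjustment in each. A group left with 1 array borrows its spread from the others.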
